A study of Homo sapiens with 2 samples.

Results

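Accessible chromatin was examined around 10 genes for B-cell surface and homing receptors in the mantle cell lymphoma line Z-138. The genes were MS4A1, CD22, CD37, CD40, CD38, CR2, CXCR4, CXCR5, CCR7 and ROR1. Members were all peaks of both deposited lists that overlapped a fixed span of the hg19 genome around each gene, from 40 kb for CD37 to 440 kb for ROR1 and 1010 kb in all. This gave 17 of 41540 regions in the SMARCA4 knockdown library and 25 of 55124 regions in the control library. The assay was ATAC-seq, where a transposase cuts open chromatin and leaves sequencing adapters there. The knockdown cells carried an shRNA against SMARCA4, the ATPase that powers SWI/SNF complexes to slide or evict nucleosomes, and the control cells carried a control shRNA. Both cultures received doxycycline per the labels' protocols, and the labels name no treatment with ibrutinib or venetoclax, the drugs in the series' design. Each group had 1 library, so no difference below can be set against the spread between cultures, and all intervals cover counting error only.

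The products of these genes sit on the surface of B cells. MS4A1 encodes CD20, CD22 is an inhibitory co-receptor of the B-cell receptor, CD37 is a tetraspanin, and CD38 is an ectoenzyme that breaks down NAD. CD40 receives the helper signal of T cells, and CR2 binds complement fragments on antigen. CXCR4, CXCR5 and CCR7 are chemokine receptors that guide lymphocytes to bone marrow, follicles and T-cell zones. ROR1 is a receptor for Wnt5a that mantle cell lymphoma cells often carry and that most normal adult B cells lack.

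The regions themselves cannot be printed as bases, because a genome sequence of build hg19 was not used here. To show the kind of sequence upstream of these genes, the 250 bases before the start of CXCR4, CD38 and ROR1 are given from RefSeq (GRCh38.p14). For CXCR4 this is the first of 3 listed starts. These genes were chosen because these 3 spans held the most regions among members with an entry in the promoter set used here. Capitals mark matches, on either strand, to GGGCGG, a box bound by SP factors, or to CCAAT, a box bound by NF-Y. Also searched on either strand were TGANTCA, the AP-1 motif, and ATGCAAAT, the octamer of OCT factors, and neither matched in any member window.
CXCR4, chr2:136118150-136118399, minus strand: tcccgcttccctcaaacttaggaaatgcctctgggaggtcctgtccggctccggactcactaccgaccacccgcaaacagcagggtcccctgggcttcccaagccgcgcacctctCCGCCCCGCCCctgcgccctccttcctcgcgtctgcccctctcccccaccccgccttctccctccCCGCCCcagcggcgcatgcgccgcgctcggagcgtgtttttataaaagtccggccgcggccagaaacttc
CD38, chr4:15778078-15778327, plus strand: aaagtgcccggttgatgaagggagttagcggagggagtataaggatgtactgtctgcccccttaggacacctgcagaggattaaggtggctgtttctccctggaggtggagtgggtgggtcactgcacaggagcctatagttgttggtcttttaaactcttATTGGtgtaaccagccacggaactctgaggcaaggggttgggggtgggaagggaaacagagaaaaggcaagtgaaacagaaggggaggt
ROR1, chr1:63773767-63774016, plus strand: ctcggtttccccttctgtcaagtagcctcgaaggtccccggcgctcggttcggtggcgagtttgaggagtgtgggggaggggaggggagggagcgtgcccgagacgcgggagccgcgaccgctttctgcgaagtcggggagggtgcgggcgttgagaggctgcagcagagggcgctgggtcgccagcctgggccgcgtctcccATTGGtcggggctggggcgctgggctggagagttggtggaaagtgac

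The CXCR4 window shown had 3 GGGCGG matches, of which 2 share bases, and a GC content of 68.0%. The second CXCR4 window, not shown, had 0 GGGCGG matches, 1 CCAAT match and a GC content of 55.6%. The third, also not shown, had 1 GGGCGG match and 51.6%. The CD38 window had 1 CCAAT match and a GC content of 52.4%, and the ROR1 window had 1 CCAAT match and 69.2%. Over all 35116 windows of this length, 42.6% held GGGCGG, 32.0% CCAAT, 6.57% TGANTCA and 1.63% ATGCAAAT, and the median GC content was 58.0%. CD22, CR2 and CXCR5 also had entries in the promoter set used here, while MS4A1, CD37, CD40 and CCR7 had none in it and are named only. The coordinates of these windows are those of GRCh38.p14 and cannot be set against the hg19 positions of the regions. Whether a region lies on a promoter, in an intron or beyond the gene is therefore not stated.

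Accessible regions were unevenly spread over the receptor spans. CXCR4, MS4A1, CD38 and ROR1 held most of them, CD22 held none in either library, and CXCR5 and CCR7 each had regions in a single library. The knockdown library had 17 regions covering 4193 bp, against 25 regions covering 4860 bp in the control library. The knockdown number was thus 68.0% of the control number (95% interval 34.5 to 131%), and over the whole genome it was 75.4%. Density was 1.68 regions per 100 kb in the knockdown and 2.48 in the control library. Over the genome it was 1.41 in the knockdown and 1.87 in the control. The genome length used here, and the windows used below, run from the first to the last region of each chromosome. Stretches where reads cannot map were not left out, which lowers these densities and raises the share of empty windows. Of the 25 control regions, 10 had no knockdown region overlapping them, which is 40.0% beside 39.5% of all control regions. Of the 17 knockdown regions, 3 had no control partner, or 17.6% beside 20.6% of all knockdown regions. Both shares were close to the genome-wide background.

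**Figure D1:**
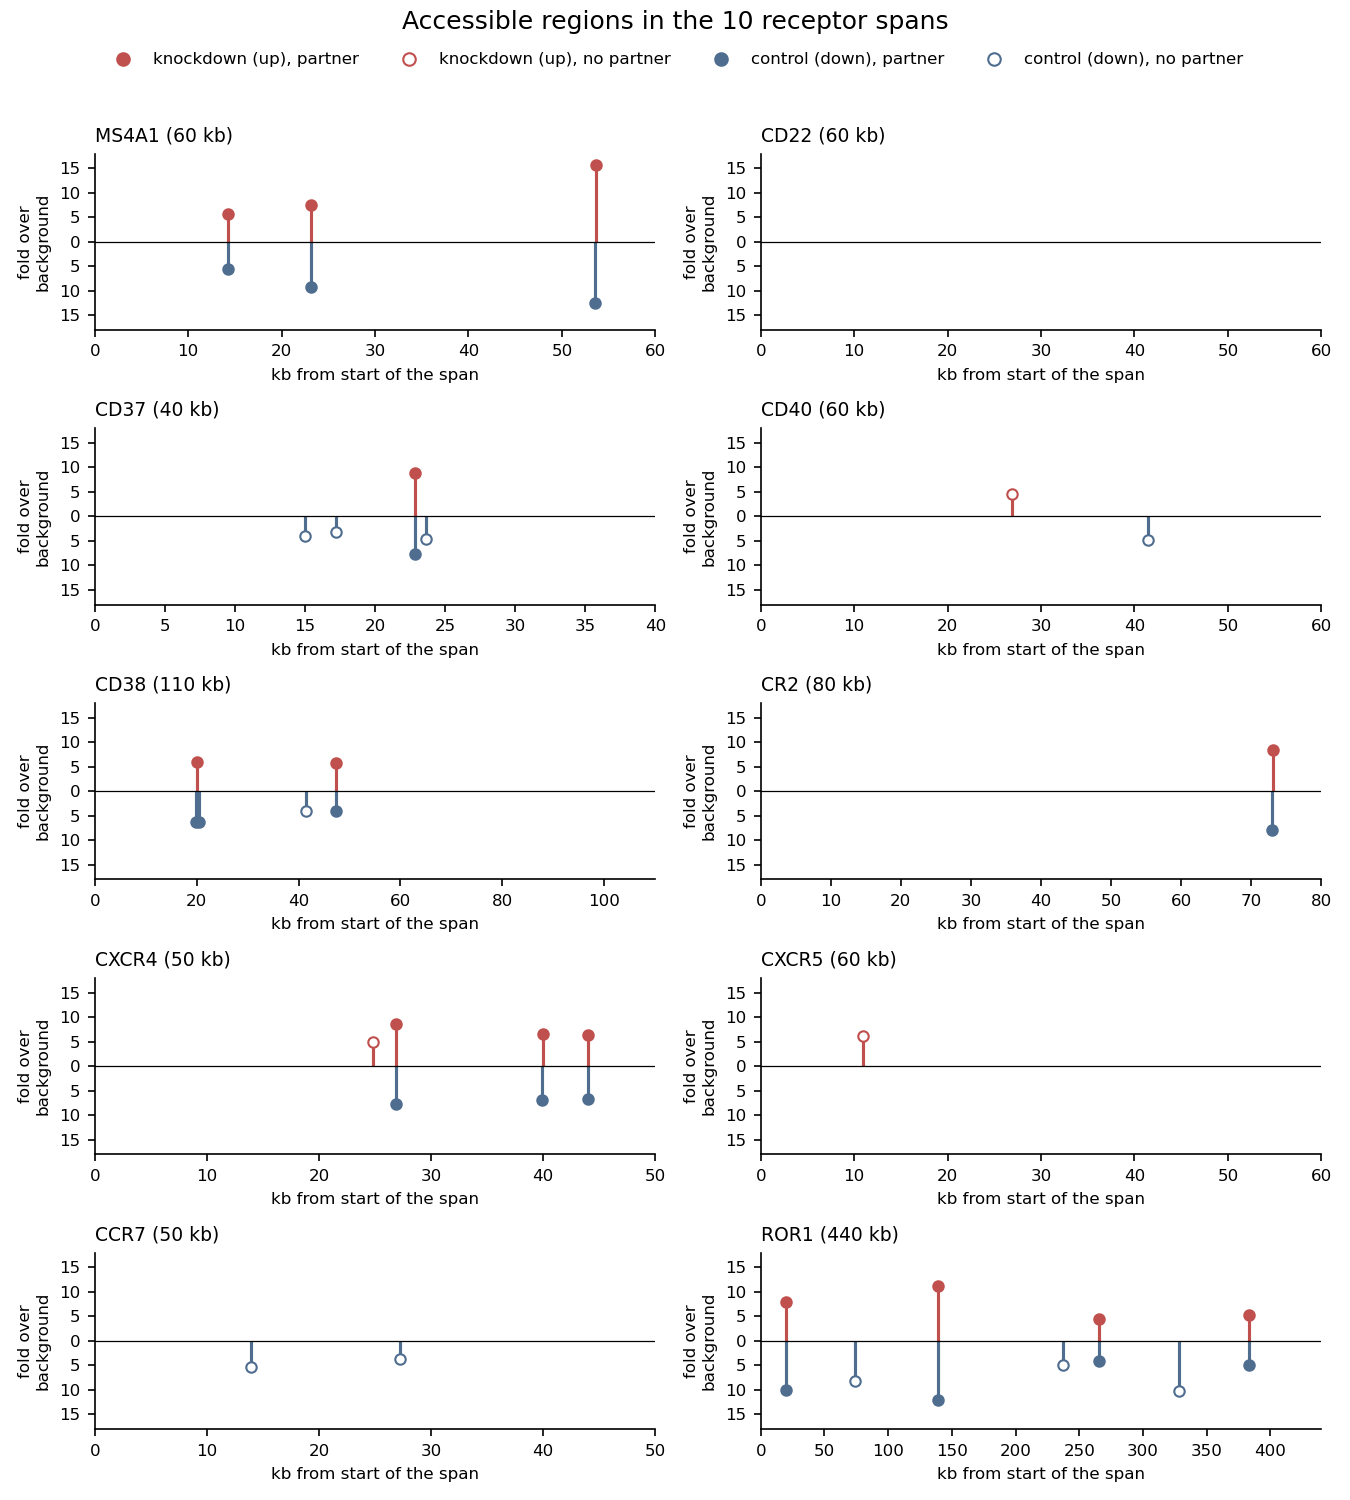
Positions of accessible regions in the 10 spans, in kb from the start of each span, with the deposited fold enrichment over background on the vertical axis. Knockdown regions point up and control regions down, and open circles lack a partner in the other list. The MS4A1 and CXCR4 spans show mirrored patterns apart from 1 knockdown-only CXCR4 region, ROR1 has 3 open control circles, and CD22 is empty.

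Strength varied widely among the receptor regions. The lists give no read counts, but fold and p-value together fix how many reads were stacked at a summit. The depth recovered this way was 9.76 M reads in the knockdown and 6.89 M in the control, for an assumed genome of 2.7 Gb. A control summit is multiplied by 1.34 below to give reads "at knockdown depth", and a knockdown summit divided by it for "control depth". The deposited fold compares the reads stacked at the summit with the expected background, each with 1 read added. Its median was 6.38 in the 17 knockdown and 6.22 in the 25 control regions, beside 7.04 over the knockdown list and 6.45 over the control list. The median width was 213 bp in the knockdown and 161 bp in the control regions, beside 163 bp over the knockdown list and 161 bp over the control list. Regions of the smallest width in their list, 89 bp in the knockdown and 94 bp in the control, numbered 1 of 17 in the knockdown and 7 of 25 in the control, beside 11.8% of the knockdown list and 15.8% of the control list.

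The span of MS4A1, the CD20 gene, kept all of its regions. On chromosome 11 (60.20 to 60.26 Mb), it held 3 regions in the knockdown and 3 in the control library, and each had a partner. The strongest knockdown region of any receptor span was here, from 60253509 to 60253721, with a fold of 15.6 and 24 reads stacked at its summit. The control region at the same place, from 60253443 to 60253686, had 16 reads, or 21.5 at knockdown depth, and a fold of 12.4. The knockdown fold stood at percentile 96.9 of its own list and the control fold at percentile 91.3. This knockdown region lies 53.5 kb from the start of the span. MS4A12 is the next protein-coding gene to the right in GRCh38.p14, and the region was not assigned to either gene. The middle region, at 60222981 to 60223318 in the knockdown, had 12 reads and a fold of 7.52. Its control counterpart, at 60222966 to 60223353, had 15 reads, or 20.1 at knockdown depth, and a fold of 9.23. The weakest, from 60214172 to 60214271 in the knockdown, had 7 reads there and 6 reads in the control, or 8.05 at knockdown depth. Across 60 kb windows of the genome, 9.15% held at least 3 knockdown regions and 14.0% at least 3 control regions.

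CD22, the inhibitory co-receptor, had no region in its span on chromosome 19 (35.80 to 35.86 Mb). Of 49106 windows of 60 kb, 38.1% were likewise empty in both lists. The nearest regions outside the span were 98.1 kb to its left in the knockdown and 83.6 kb in the control, and to its right 141 kb in the knockdown and 126 kb in the control. Within 1 Mb on both sides there were 50 knockdown and 53 control regions. The lists hold no value for places without a peak, so accessibility below the caller's limit is not measured at this B-cell gene.

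CD37, the tetraspanin gene, kept its strongest region and had 3 weak control-only regions. The span on chromosome 19 (49.82 to 49.86 Mb) held 1 knockdown and 4 control regions. The shared region, from 49842758 to 49842962 in the knockdown, had 13 reads and a fold of 8.92. In the control it had 9 reads, or 12.1 at knockdown depth, and a fold of 7.63. The control-only regions had 3, 4 and 5 reads at their summits and folds of 3.23, 3.96 and 4.55. At knockdown depth these summits correspond to 4.03, 5.37 and 6.71 reads, and the lowest summit in the knockdown list had 4. Of all control regions, 17.7% with folds below 4 and 29.5% with folds from 4 to 5 had a partner, so most regions this weak had none. The region of 5 reads, from 49843563 to 49843656, lay 0.6 kb from the shared knockdown region. Windows of 40 kb with at least 4 control regions made up 2.51% of the genome.

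CD38, the ectoenzyme gene, had a wide accessible stretch that was 1 region in the knockdown and 2 in the control. Its span lies on chromosome 4 (15.76 to 15.87 Mb). The knockdown region (15779909 to 15780383) had 10 reads and a fold of 5.96. It overlapped the control regions from 15779778 to 15780070 and from 15780264 to 15780737. Each of these had 13 reads, or 17.4 at knockdown depth, and a fold of 6.22. A second knockdown region, from 15807285 to 15807523, had 7 reads and a fold of 5.82. The control region there had 4 reads, or 5.37 at knockdown depth, and a fold of 4.02. The other control region, from 15801463 to 15801556, had 4 reads and no knockdown partner within 5.73 kb. Its fold was 4.02, and of all control regions with folds from 4 to 5, 29.5% had a partner.

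ROR1, the Wnt5a receptor gene, held the strongest regions that were found in the control alone. Its span on chromosome 1 (64.22 to 64.66 Mb) makes up 43.6% of the length searched, and it held 4 knockdown and 7 control regions. At the genome-wide densities a span of this length would hold 6.20 knockdown and 8.23 control regions. At 64548200 to 64548389 the control list had a region of 12 reads and fold 10.3, which is 16.1 reads at knockdown depth. No knockdown region lay within 54.5 kb of it. Another, at 64294036 to 64294336, had 11 reads and fold 8.22, or 14.8 reads at knockdown depth, with the nearest knockdown region 54.1 kb away. The last control-only region, from 64457511 to 64457612, was weak, with 5 reads. Of all control regions, 92.1% with folds from 10 to 12 and 84.0% with folds from 8 to 10 had a knockdown partner.

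All 4 knockdown regions at ROR1 had a control partner. The strongest, from 64358781 to 64358994, had 16 reads and a fold of 11.2 in the knockdown. In the control it had 18 reads, or 24.15 at knockdown depth, and a fold of 12.1. The first region of the span covered 530 bp in the knockdown, from 64239377 to 64239906, and 199 bp in the control. It had 13 reads in the knockdown and 15 in the control, or 20.1 at knockdown depth. The remaining pairs were faint, with 5 and 6 reads in the knockdown and 4 and 5 reads in the control. At knockdown depth these control summits correspond to 5.37 and 6.71 reads.

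CD40, which receives T-cell help, had 1 region in each library and these did not overlap. On chromosome 20 (44.72 to 44.78 Mb) the knockdown region ran from 44746850 to 44746993 and the control region from 44761415 to 44761508, 14.4 kb apart. Each had 5 reads at its summit, with folds of 4.54 in the knockdown and 4.84 in the control. Genome-wide, 48.2% of knockdown regions with folds from 4 to 5 had a partner, and 29.5% of control regions in that range did. CR2, the complement receptor gene, had 1 shared region on chromosome 1 (span 207.60 to 207.68 Mb). It ran from 207672959 to 207673145 in the knockdown, with 11 reads and a fold of 8.51. The control region had 9 reads, or 12.1 at knockdown depth, and a fold of 7.98. The scaled ratio, knockdown over control, was 0.911 (0.343 to 2.49). The region lies 73.0 kb from the start of the span. CR1, another complement receptor gene, is the next protein-coding gene on that side in GRCh38.p14, and the region was not assigned to either.

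CXCR4 was the densest of the 10 spans in the knockdown library. Its 50 kb on chromosome 2 (136.85 to 136.90 Mb) held 4 knockdown and 3 control regions. At least 4 knockdown regions were found in 2.55% of windows of that length, and at least 3 control regions in 10.4%. The strongest knockdown region, from 136876753 to 136877043, had 22 reads and a fold of 8.66. Its control partner had 16 reads, or 21.5 at knockdown depth, and a fold of 7.78. At the pair further along, the knockdown region from 136889750 to 136890210 had 15 reads. The control region had 17, or 22.8 at knockdown depth. The last pair, from 136893870 to 136894149 in the knockdown, had 14 reads there and 16 in the control, or 21.5 at knockdown depth.

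A further CXCR4 region, from 136874716 to 136874904, was found in the knockdown alone. It had 12 reads, or 8.94 at control depth, and a fold of 4.86, since 188 reads lay in the surrounding 10 kb. The nearest control region was 1.90 kb away. Of all knockdown regions with folds from 4 to 5, 48.2% had a control partner, so lacking one was common at this strength.

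The follicle-homing receptor CXCR5 had a single region, in the knockdown library. It lay on chromosome 11 from 118740923 to 118741011, in the span from 118.73 to 118.79 Mb, with 7 reads and a fold of 6.05. The nearest control region was 31.1 kb away, and the region had the smallest width in its list. Its 7 reads correspond to 5.22 at control depth. Of all knockdown regions with folds from 6 to 8, 81.2% had a control partner, and of those from 5 to 6, 63.9% did. The fold here lies at the border of these ranges. CCR7, which guides cells to T-cell zones, had no knockdown region and 2 control regions on chromosome 17 (38.69 to 38.74 Mb). The control regions, from 38703907 to 38704000 and from 38717170 to 38717263, had 6 and 4 reads and folds of 5.38 and 3.61. Both had the smallest width in the control list. Of all control regions, 48.3% with folds from 5 to 6 and 17.7% with folds below 4 had a partner, so most regions like these had none. The next protein-coding gene after CCR7 in GRCh38.p14 is SMARCE1, which encodes a SWI/SNF subunit.

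**Figure D2:**
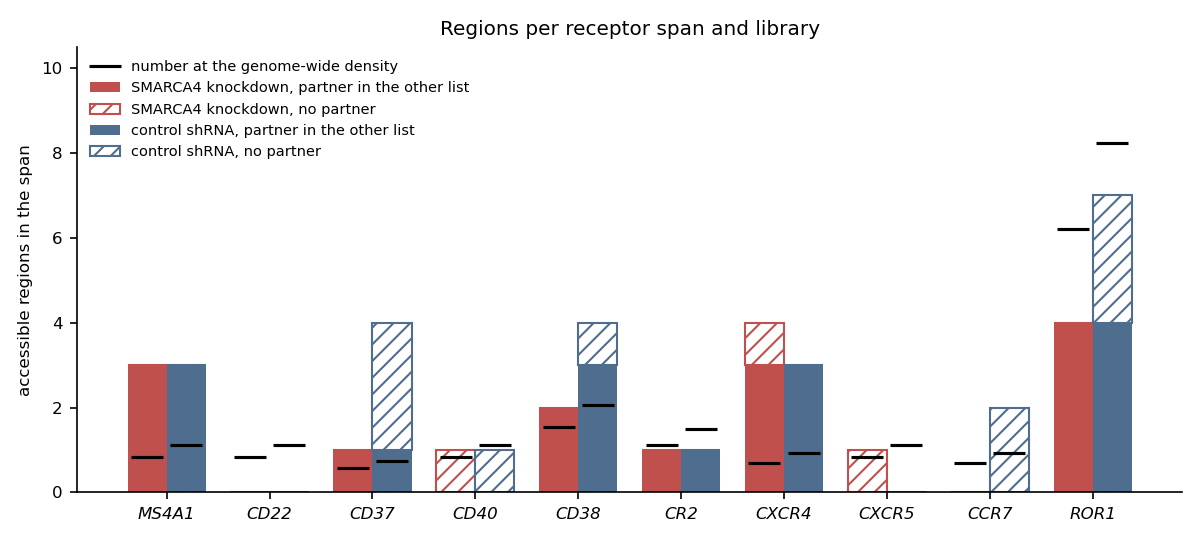
Number of accessible regions in each span, with the knockdown bar left of the control bar. Filled parts have a partner in the other list, hatched parts do not, and black marks give the number at the genome-wide density of that library. MS4A1, with 3 and 3 regions, CXCR4, with 4 and 3, CD37 and CD38 exceed their marks in both libraries. ROR1, CR2 and CD22 lie below theirs in both, and CD40, CXCR5 and CCR7 exceed theirs in a single library.

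Receptor regions without a partner were mostly weak, as were such regions of the whole genome. The median fold was 4.69 for control-only regions, against 6.93 for control regions with a partner, beside 4.95 and 7.91 over the whole control list. In the knockdown it was 4.86 for regions found there alone and 7.06 for those with a partner, beside 5.30 and 7.87 over the whole knockdown list. All 7 control regions with folds from 6 to 8 had a partner, where 66.7% of all control regions in that range did. Of the 10 control regions with a fold below 5, 3 had one, beside 27.3% of all such control regions. The stronger ROR1 regions without a partner had higher folds, 8.22 and 10.3, and control-only regions of such folds also occurred elsewhere in the genome. Of all control regions with folds from 10 to 12, 92.1% had a knockdown partner (interval 91.2 to 92.8%), and of those from 8 to 10, 84.0% had one (83.2 to 84.8%). In the receptor spans these ranges held 1 and 3 control regions, of which 0 and 2 had a partner. Such small numbers cannot be told from the genome-wide shares. ROR1 held both of the control-only receptor regions with a fold of at least 6.

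**Figure D3:**
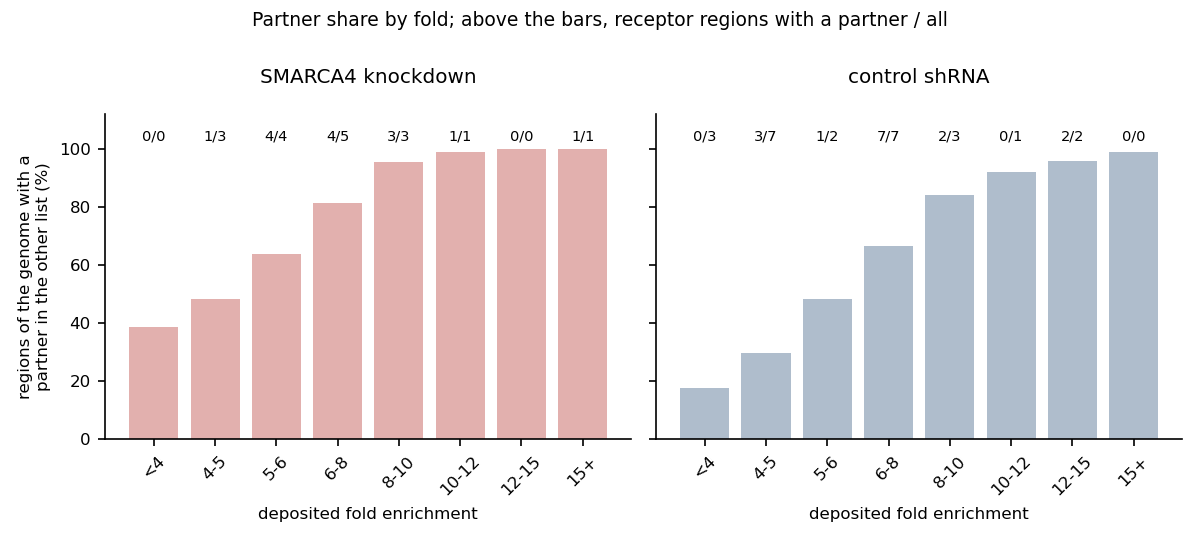
Percent of all regions of the genome with a partner in the other list, by deposited fold, for the knockdown (left) and the control library (right). Numbers above the bars count receptor regions with a partner over all receptor regions of that range. The share grows with fold in both lists, and the ROR1 region with a fold of 10.3 is the 0 of 1 in the control panel.

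Where both lists had a region, the receptor summits resembled those of the genome as a whole. The 15 control regions with a partner gave 15 pairs, in which 1 CD38 knockdown region counts in 2. Scaled for depth, the log2 ratio of summit reads, knockdown over control, had a median of -0.20, beside -0.25 over all 33358 pairs. The quartiles were -0.62 and -0.03 in the receptor spans, beside -0.62 and 0.08 over all pairs. Centred on the median of all pairs, the receptor median was 0.046, so its sign depends on the scaling. Of the 15 ratios, 11 were below 0 and 4 above with depth scaling, and 7 were below and 8 above when centred. None passed 2-fold, where 11.0% of all pairs were 2-fold or more lower and 1.36% 2-fold or more higher. At a limit of 1.5-fold with depth scaling, 7 pairs were lower and 0 higher, beside 26.5% of all pairs lower and 4.71% higher. The 7 did not hold under other scalings. Centred on all pairs, 0 were lower and 1 higher, beside 15.9% lower and 12.2% higher genome-wide. Without scaling, 0 were lower and 2 higher, beside 11.0% lower and 21.6% higher. Relative to the local background 0 of 12 pairs were past the limit either way, beside 14.5% lower and 5.26% higher.

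The lowest scaled ratio was 0.573 at the CD38 stretch (0.225 to 1.42), for each of its pairs. The summits of these pairs lay 113 and 509 bp apart. In the pair with the larger distance the control summit, at 15780602, lay outside the knockdown region, which ends at 15780383. That ratio therefore compares reads at different places. The middle MS4A1 region followed at 0.596 (0.255 to 1.36), and the first ROR1 region at 0.646 (0.283 to 1.46). The CXCR4 pairs further along gave 0.658 and 0.652, while the first CXCR4 pair gave 1.02 (0.514 to 2.09). The highest ratio was 1.30 at the second CD38 region (0.332 to 6.08). MS4A1 gave 1.12 at its strongest region (0.570 to 2.25), and CD37 gave 1.08. Every one of the 15 intervals included 1, so at these depths no receptor pair could be told from equal signal.

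**Figure D4:**
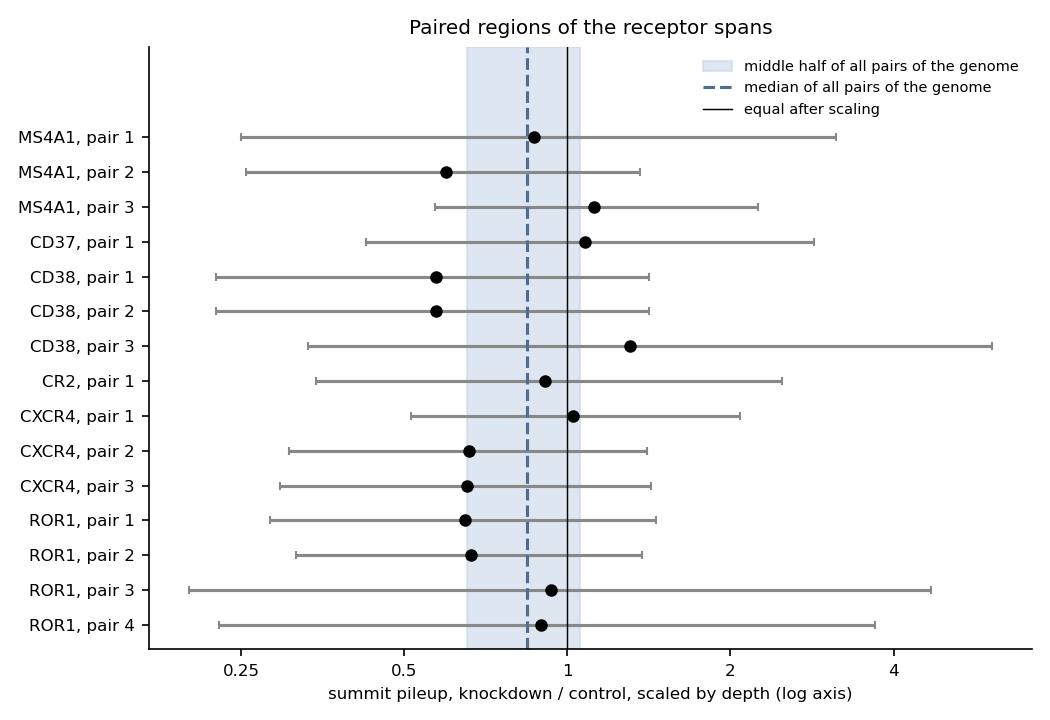
Ratio of knockdown to control summit pileup, scaled by depth, for the 15 paired regions, on a log axis with 95% counting intervals. The shaded band holds the central 50% of all pairs of the genome and the dashed line is their median. Points lie between 0.573 and 1.30, and all intervals cross the line of equal signal.

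The reads of the surrounding 10 kb, recovered from the caller's local background, gave a second view of each place. They include the reads of the regions themselves, and could be had in both libraries for 12 pairs. CXCR4 and the CD38 stretch lay in the richest surroundings. The first CXCR4 region had 19.1 reads around it per 1 M of the library in the knockdown and 18.3 in the control. The list medians were 7.37 in the knockdown and 7.55 in the control. Around the other CXCR4 pairs, the levels were 16.4 and 15.6 in the knockdown, against 24.7 and 24.2 in the control. The scaled ratios there were 0.664 (0.532 to 0.829) and 0.642 (0.512 to 0.805), against 1.04 (0.826 to 1.32) at the first region. The 2 windows with lower ratios overlap each other and share reads.

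CD38 differed most in its surroundings. Around its wide stretch there were 9.73 reads per 1 M in the knockdown, from 95 reads, and 19.3 in the control, from 133 reads. The scaled ratio was 0.504 (0.383 to 0.661), at percentile 2.01 of all 27933 pairs with such values. At the second CD38 region, 26.9 kb away in the knockdown list, the ratio was 1.14 (0.683 to 1.94). The second ROR1 region gave 0.682 (0.467 to 0.995). CD37 stood at the other end with 1.37 (0.886 to 2.15), at percentile 97.5. Over the 12 pairs 4 were lower by 1.5-fold or more and 0 higher, beside 10.2% and 0.820% of all pairs, and these 4 come from 1 stretch of CXCR4 and 1 of CD38, each counted 2 times. Relative to its own surroundings, the CD38 summit had a log2 ratio of 0.19 in the knockdown over the control. The intervals of these CXCR4 and CD38 ratios, and that of the second ROR1 region, lie below 1. Most pairs of the genome were also lower, however. Over all 27933 pairs the log2 ratio of these reads had a median of -0.14, and 67.7% were below 0. The lower CXCR4 ratios stood at percentiles 10.0 and 8.2 of those pairs. No repeat library shows how far such values vary between cultures.

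**Figure D5:**
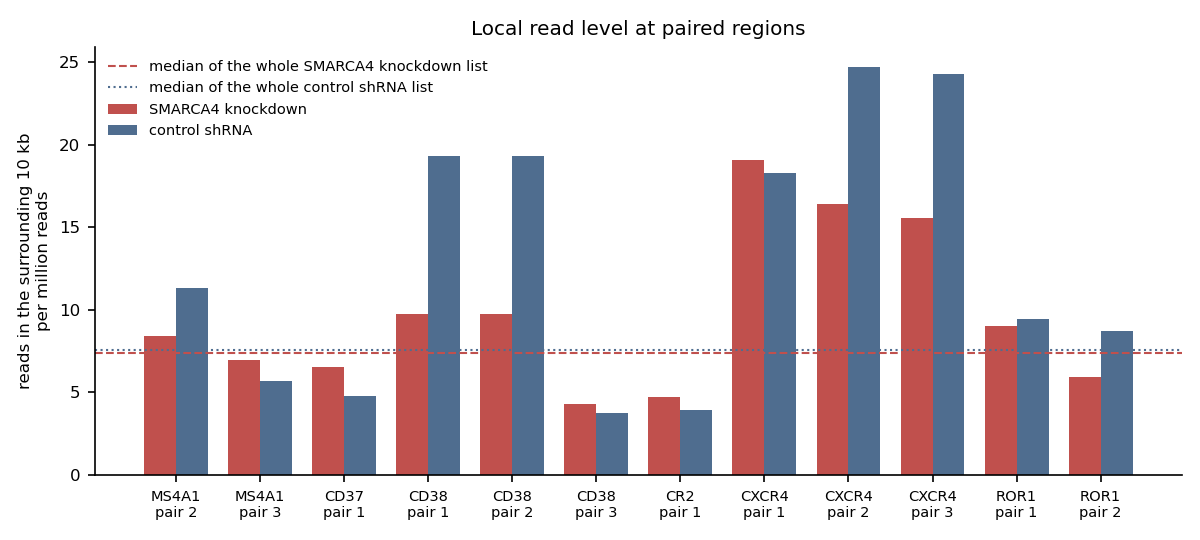
Reads in the 10 kb around 12 paired regions, per 1 M reads of the library, with the knockdown bar left of the control bar. The dashed line is the median of the knockdown list, 7.37, and the dotted line that of the control list, 7.55. The control bars stand well above the knockdown bars at the CD38 stretch (pairs 1 and 2, which share a knockdown region) and at CXCR4 pairs 2 and 3, and not at CXCR4 pair 1.

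Within 1 Mb on both sides of the 10 spans, the share of regions with a partner ranged from 62.9% to 88.1% in the knockdown and from 53.5% to 81.1% in the control. Over the genome it was 79.4% in the knockdown and 60.5% in the control. The lowest shares were around ROR1, where 22 of 35 knockdown regions and 23 of 43 control regions had a partner. On chromosome 1 as a whole, 80.8% of knockdown and 62.4% of control regions had one. The knockdown share was highest around CR2, at 88.1% in the knockdown and 71.2% in the control. The control share was highest around CD22, which has no region of its own, at 80.0% in the knockdown and 81.1% in the control, and over chromosome 19 it was 81.0% in the knockdown and 72.2% in the control. These ends of the range were picked after their values were seen, and no test was made.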

How the data were processed

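Each library came as 1 list of peaks, called separately. Build hg19, MACS2, BWA and bcl2fastq 2.17.1.14 were used per the submitters' processing notes, which give no parameters. Peak names contain sort, rmdup and DMSO. For any shift of insertion sites, the step is not stated in the sources used here. The deposited fold is the ratio of summit reads to background, the deposited −log10 p and q values are the caller's, and the deposited score is 10 times the −log10 q-value without decimals.

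Python 3.11.15 with SciPy 1.17.1 was used. Summit pileup and background were solved for every peak from its fold and p-value (Poisson tail). Fold and p-value recomputed from the solved values, when solved again, gave back the same whole numbers for every region of both lists. This checks the arithmetic only, since the starting values were themselves solved from these lists. The depths were 9.76 M reads in the knockdown and 6.89 M in the control, assuming a genome of 2.7 Gb. Pileups were scaled by the ratio of the lowest backgrounds, 1.34, and reads in 10 kb by 1.42. Chromosome Y was left out. Partners overlap by at least 1 bp, and a control region was paired with the knockdown region of greatest overlap. Shares and ratios carry exact binomial 95% intervals. They cover counting error only, since reads without molecular identifiers are not independent molecules. No test between groups was possible with 1 library each. Genes, spans and alternatives were chosen with earlier results of these data known. Named regions are the strongest of each span and library, those of 1 list above its median fold, and pairs past 2-fold, and other regions are given because the spans hold few. Other receptor genes, and markers of other cell types, were not looked up, since an hg19 annotation was not used here. Knockdown of SMARCA4 was not checked, because peaks measure no RNA or protein.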

Additional observations from a re-analysis of the deposited data

How the results depend on the processing

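No paired analysis was possible because each group has 1 library, and for the same reason none could be left out. The numbers of 17 knockdown and 25 control regions became 17 and 19 at a q-value of at most 0.001, and 12 and 14 at 1e-05. Lists of equal length gave 17 and 17. The share of control regions with a partner, 60.0%, ranged from 40.0% with reciprocal overlap of 50% to 78.6% at a q-value of 1e-05, and that of knockdown regions, 82.4%, from 58.8% to 83.3%. The median log2 ratio of -0.20 became 0.22 without scaling and 0.046 when centred on all pairs. It was -0.03 relative to the local background and -0.60 at a q-value of 1e-05. At 2-fold, 0 pairs were lower and 0 higher in the knockdown. At 1.5-fold there were 7 lower and 0 higher with depth scaling, 0 and 1 when centred, 0 and 2 without scaling, and 0 and 0 relative to the local background, of which all but the first were added after seeing the data. The causes were not tested. Without ROR1, a setting chosen after seeing the data, 13 knockdown and 18 control regions remained, with partner shares of 76.9% and 61.1%. Summits of 3 to 7 reads limit what the weak regions show.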
